A study of Homo sapiens with 9 samples.

Results

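The genes described here are 9 sensors and effectors of double-stranded RNA, chosen by name from 54562 Ensembl genes measured in HEK293 cells: RIGI (formerly DDX58), IFIH1, DHX58, TLR3, MAVS, EIF2AK2, OAS1, OAS2 and OAS3. All 9 were found in the table, and 5 of them (EIF2AK2, MAVS, OAS3, RIGI and IFIH1) averaged 1 FPKM or more over the 9 libraries. HEK293 is a line derived from human embryonic kidney that takes up plasmid DNA readily. The cells of every group were transiently transfected with a lipid reagent and collected 48 hours later, so the controls had also received plasmid DNA. The control cells received the empty vector (EV). The Short cells received the pCMV6 plasmid for the isoform of the RNA editing enzyme ADARB1 that skips its *Alu* exon. The Long cells received the same plasmid with the *Alu* exon inserted, which adds a peptide to the deaminase domain. Each group had 3 libraries of strand-specific mRNA-seq, made from 3 cell passages. The values are FPKM, in which the fragments of a gene are divided by its length and by the library's total of mapped fragments, so that levels can be compared between genes. The methods describe no step that separates transfected cells from those that took up no plasmid, and in bulk RNA fewer cells that express a gene and less RNA per cell cannot be told apart.

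Cells recognise long double-stranded RNA as a sign of viral infection. In the cytosol, the helicases RIG-I (encoded by RIGI) and MDA5 (encoded by IFIH1) bind it and signal through the mitochondrial adaptor MAVS to the transcription factors that switch on type I interferons, and TLR3 does the same from the endosome through another adaptor. PKR (encoded by EIF2AK2) phosphorylates the initiation factor eIF2 alpha and stops translation, and the oligoadenylate synthetases make a messenger molecule that leads to the cleavage of RNA. Inverted *Alu* repeats in the cell's own transcripts also form double-stranded RNA, and adenosine-to-inosine editing of these duplexes by ADAR enzymes is known to weaken their recognition. Most of the sensor genes are themselves induced by interferon.

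Interferon acts on many of these genes through the interferon-stimulated response element (ISRE) near the start of transcription. RefSeq promoter windows (GRCh38.p14), which run from 250 bases before to 50 bases after the start, matched 7 of the 9 genes by symbol; DHX58 and OAS2 had no window. The ISRE core GAAANNGAAA was searched on both strands, and it was found in the windows of 4 of these 7 genes and in 1255 of all 35116 windows (3.57%). The 60 bases around the match nearest to the start are printed for these 4 of the 7 genes, which hold this letter pattern beside their start. Each is written in the direction of transcription, with the match in capitals.
EIF2AK2 (chr2:37156962-37157021, minus strand): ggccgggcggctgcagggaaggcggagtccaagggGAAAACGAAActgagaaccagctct
IFIH1 (chr2:162318681-162318740, minus strand): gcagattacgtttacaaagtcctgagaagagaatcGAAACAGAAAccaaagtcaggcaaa
OAS3 (chr12:112938427-112938486, plus strand): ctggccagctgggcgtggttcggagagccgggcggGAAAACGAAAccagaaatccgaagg
TLR3 (chr4:186069117-186069176, plus strand): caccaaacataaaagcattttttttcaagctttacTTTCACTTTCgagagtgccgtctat
The match began 6 bases before the start in EIF2AK2, 21 before it in IFIH1, 12 before it in OAS3 and 4 before it in TLR3, where the core lies on the opposite strand. EIF2AK2 and OAS3 share the same 10 letters. IFIH1 held 2 further, overlapping matches that began 159 and 153 bases before the start, and OAS3 held another 143 bases before it. The windows of RIGI, OAS1 and MAVS did not contain these letters, which says nothing about whether a factor binds there. Those of RIGI and OAS1 hold GAAACGAAA, a form with a shorter gap that the search did not cover. All of these letters are a description of the sequence, not a measurement of binding. The genes with a match ranged in level from EIF2AK2 near 20 FPKM to TLR3 under 1 FPKM.

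ADARB1 itself was measured first, as a check of the labels. Its FPKM lay between 7.66 and 8.61 in EV. The Short libraries held 1889, 4145 and 2735 FPKM of ADARB1 and the Long libraries 1695, 3449 and 2080 FPKM (replicates 1, 2 and 3). The libraries matched their labels for total ADARB1, and these values do not separate the isoforms. All 6 HEK293 markers that were found averaged 1 FPKM or more, and their summed level was 457 to 488 FPKM in EV, 486 to 553 FPKM in Short and 511 to 534 FPKM in Long. None of the 5 leukocyte markers reached a mean of 1 FPKM (summed level 0.556 to 1.19 FPKM over the libraries). Of the 4 fibroblast markers, COL1A1 alone did, and their summed level was 10.4 to 13.6 FPKM. The summed FPKM of a library ranged from 517170 to 541348 in EV, from 533531 to 589535 in Short and from 544461 to 567585 in Long. The table gives no fragment counts.

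The 9 genes covered a wide range of levels. In the EV cells EIF2AK2 and MAVS stood far above the rest and together made up 82.2% of the summed FPKM of the 9 genes. Among 13815 genes that averaged 1 FPKM or more in EV (median 11.6 FPKM), 68.8% had a lower mean than EIF2AK2 and 67.0% had a lower mean than MAVS. OAS3, RIGI and IFIH1 formed a second tier, above 17.3%, 15.8% and 14.5% of these genes, respectively. TLR3, DHX58, OAS1 and OAS2 were all under 0.25 FPKM in EV. The EV ranges of neighbours in this order overlapped between EIF2AK2 and MAVS, between OAS3 and RIGI, between RIGI and IFIH1, between DHX58 and OAS1, and between OAS1 and OAS2. They did not overlap between MAVS and OAS3 (6.51-fold), between IFIH1 and TLR3 (11.5-fold) or between TLR3 and DHX58 (1.73-fold). Each of these gave p = 0.1, the smallest p possible, in the exact two-sided permutation test of 3 against 3 values. Both genes were measured in the same 3 EV libraries, and that test ignores this pairing. MAVS and EIF2AK2 were thus near 20 FPKM in cells in which the rest of the 9 genes were near 3 FPKM or lower.

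**Figure D1:**
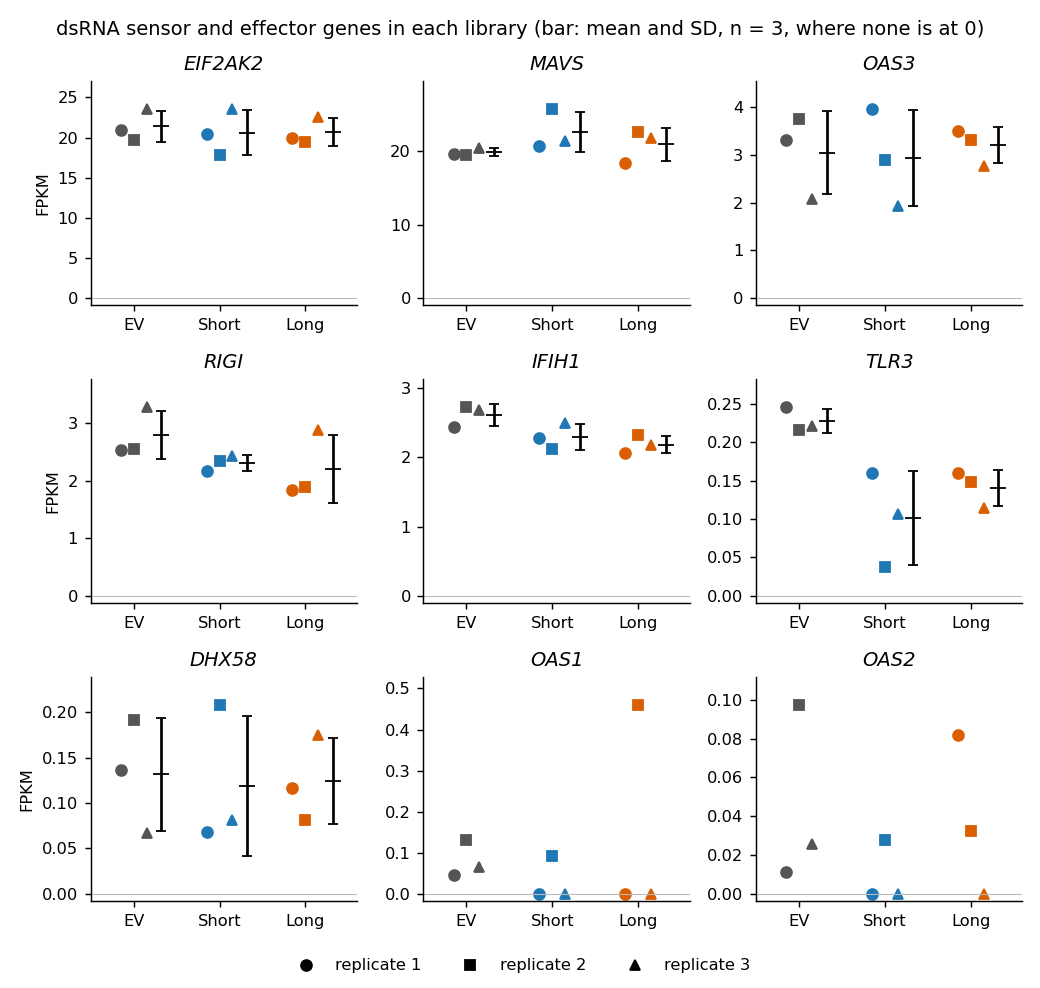
FPKM of the 9 genes (1 panel each, with its own linear axis) in the EV, Short and Long libraries. Each symbol is a library, with its shape giving the replicate, and the bars beside them are the mean and SD (n = 3) where no library is listed at 0. EIF2AK2 and MAVS lie near 20 FPKM in all groups, OAS3, RIGI and IFIH1 near 2 to 4 FPKM, and the other 4 genes under 0.5 FPKM.

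Differences between groups were tested with limma on log2(FPKM + 1) over the 13801 genes that averaged 1 FPKM or more. The replicate number, taken as the cell passage, was a block, with Benjamini-Hochberg adjustment and a threshold of 0.05. None of the 5 members tested passed in Short against EV (0.0362% of all genes did), in Long against EV (8.32% of all genes did, 6.33% lower and 1.99% higher) or in Long against Short (0.00725% of all genes did). The split of the Long calls over all genes depended on the scaling: 275 were higher and 873 lower with FPKM, 57 and 1217 with TPM, and 135 and 1105 with median ratio scaling. At an unadjusted p under 0.05 from the same limma fits, the count of members was 0, 1 and 0, respectively, and the 1 was RIGI in Long against EV. The median log2 fold change of the 5 members was -0.06 in Short against EV, -0.05 in Long against EV and -0.05 in Long against Short, beside 0.04, 0.04 and -0.02 over all genes tested. With 3 passages, these p-values set a group difference against the spread that remains between transfections of this line once group and passage are fitted. A fold change of FPKM + 1 understates the change of a gene near 1 FPKM, so the differences of mean FPKM are given as well. Values of single libraries are in the order of replicates 1, 2 and 3.

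RIGI (ENSG00000107201, chromosome 9 from 32455300 to 32526206 on the minus strand of GRCh37) encodes the helicase that recognises short duplexes with a triphosphate end. The EV libraries held 2.54, 2.55 and 3.27 FPKM of it (2.79 ± 0.419, SD, n = 3), the Short libraries 2.16, 2.34 and 2.43 FPKM (2.31 ± 0.139) and the Long libraries 1.83, 1.90 and 2.88 FPKM (2.20 ± 0.585). Each Short library was below every EV library, while Long replicate 3 lay within the EV range and the other two were below it. Compared within passages, RIGI was lower than EV in 3 of 3 pairs with either isoform. The difference of mean FPKM was -17.1% for Short and -21.0% for Long. The log2 fold change was -0.19 for Short against EV (SE 0.10, limma adjusted p = 0.306) and -0.25 for Long against EV (SE 0.10, 95% interval -0.48 to -0.02, limma adjusted p = 0.166, unadjusted p = 0.034). Between Long and Short it was -0.06 (95% interval -0.29 to 0.17, limma adjusted p = 0.972). Its longest transcript has a GC content of 39.8%, and genes of low GC content were lower as a group in the ADARB1 libraries: the median log2 fold change of Long against EV was -0.10 over the 4466 genes of lowest GC content (29.2% to 43.5%) and 0.09 over the 4466 of highest (53.0% to 75.6%). With each library corrected for GC content, RIGI had -0.11 in Short and -0.15 in Long. Without replicate 3 the Short value was -0.13 (limma adjusted p = 0.632). An annotated protein-coding gene on the same strand (ENSG00000288684) overlaps RIGI and is not among the genes of the table, so reads shared with it cannot be told apart.

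IFIH1 (ENSG00000115267, chromosome 2 from 163123584 to 163175194, minus strand) encodes MDA5, which binds long duplexes such as those of paired *Alu* repeats. Its level was 2.43, 2.72 and 2.68 FPKM with EV (2.61 ± 0.155), then 2.27, 2.12 and 2.49 FPKM with Short (2.29 ± 0.188) and 2.06, 2.32 and 2.17 FPKM with Long (2.18 ± 0.128). All Long libraries were below all EV libraries, and Short replicate 3 lay inside the EV range. It was lower than EV in 3 of 3 passages with either isoform. The difference of mean FPKM was -12.1% for Short and -16.4% for Long, and the log2 fold changes were -0.13 (SE 0.09, limma adjusted p = 0.429) and -0.18 (SE 0.09, 95% interval -0.39 to 0.03, limma adjusted p = 0.269). The GC content of IFIH1 is 43.2%, also in the lowest GC group, and its GC-corrected values were -0.13 and -0.18. Without replicate 2 the Short value was -0.07 (limma adjusted p = 0.865). The Long to Short difference was -0.05 (95% interval -0.26 to 0.16).

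DHX58 (ENSG00000108771, chromosome 17 from 40253422 to 40264732, minus strand) encodes LGP2, a receptor of the same family without the signalling domain. It was low, with 0.136, 0.192 and 0.0672 FPKM in EV, 0.0678, 0.208 and 0.0814 FPKM in Short, and 0.117, 0.0810 and 0.175 FPKM in Long. The groups overlapped throughout, and mean FPKM differed from EV by -9.69% in Short and -5.68% in Long. TLR3 (ENSG00000164342, chromosome 4 from 186990065 to 187009227, plus strand), the endosomal receptor, gave 0.246, 0.216 and 0.221 FPKM in EV, 0.160, 0.0377 and 0.106 FPKM in Short, and 0.160, 0.148 and 0.114 FPKM in Long. Every library with an ADARB1 plasmid was below every EV library, a difference of mean FPKM of -55.4% for Short and -38.2% for Long (p = 0.1 for each in the exact two-sided permutation test, the smallest p possible). Within passages the log2 ratio to EV was -0.61, -2.52 and -1.06 for Short and -0.62, -0.54 and -0.96 for Long. An exact two-sided sign-flip test of these ratios gave p = 0.25 for each isoform, again the smallest p possible. The longest transcript of TLR3 has a GC content of 37.6%, within the range of the lowest GC group (29.2% to 43.5%). The GC correction covered only genes that averaged 1 FPKM or more, so TLR3 has no corrected value. Both genes entered a fit of the 18535 genes that averaged 0.1 FPKM or more, in which limma gave adjusted p = 0.3001 and 0.472 for TLR3 and 0.943 and 0.972 for DHX58 (Short and Long against EV). In that fit 0.027% of genes passed in Short against EV, 4.48% in Long against EV and 0.0054% in Long against Short, and none of the 7 members included did. At these levels a few fragments may decide a value, and no count was available to give that error.

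MAVS (ENSG00000088888, chromosome 20 from 3827446 to 3856770, plus strand) encodes the adaptor on which both RIG-I and MDA5 converge. MAVS gave 19.7, 19.4 and 20.5 FPKM in EV (19.9 ± 0.550), while Short had 20.7, 25.7 and 21.5 FPKM (22.6 ± 2.72) and Long had 18.3, 22.7 and 21.8 FPKM (20.9 ± 2.29). The Short libraries were all above the EV libraries, with replicate 2 the highest, whereas Long replicate 1 was below the EV range. Mean FPKM differed from EV by 13.8% in Short and 5.34% in Long. The log2 fold change was 0.17 for Short against EV (SE 0.08, limma adjusted p = 0.233) and 0.07 for Long against EV (95% interval -0.11 to 0.24, limma adjusted p = 0.657). The Short value rested largely on replicate 2, without which it was 0.07 (limma adjusted p = 0.817). The GC-corrected values were 0.09 and -0.01, at a GC content of 52.1%. Between Long and Short the difference was -0.11 (95% interval -0.28 to 0.07, limma adjusted p = 0.853).

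EIF2AK2 (ENSG00000055332, chromosome 2 from 37326353 to 37384665, minus strand) encodes PKR. Its EV libraries held 20.9, 19.8 and 23.5 FPKM (21.4 ± 1.92), its Short libraries 20.4, 17.9 and 23.5 FPKM (20.6 ± 2.83) and its Long libraries 19.9, 19.4 and 22.6 FPKM (20.7 ± 1.73). The groups overlapped, and replicate 3 was the highest library of each. Mean FPKM differed from EV by -3.67% in Short and -3.45% in Long. Within passages it was lower than EV in 3 of 3 pairs with Long and in 2 of 3 with Short. Of the 5 members tested it had the narrowest intervals: the log2 fold change was -0.06 for Short against EV (95% interval -0.19 to 0.08, limma adjusted p = 0.621), -0.05 for Long against EV (95% interval -0.19 to 0.09, limma adjusted p = 0.683) and 0.01 for Long against Short (95% interval -0.13 to 0.15, limma adjusted p = 0.995). After GC correction, the values against EV were 0.03 and 0.08, at a GC content of 39.2%, so no direction can be given. The gene overlaps GPATCH11 on the opposite strand (mean 5.89 FPKM), and whether the counting used the strand is not given in the sources used here.

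The oligoadenylate synthetase genes lie side by side on the plus strand of chromosome 12, with 4831 bases between OAS1 and OAS3 and 1934 bases between OAS3 and OAS2. OAS3 (ENSG00000111331, from 113375856 to 113414265), whose product prefers long duplexes, was the member of the cluster with clear expression, with 3.32, 3.76 and 2.07 FPKM in EV (3.05 ± 0.877), 3.96, 2.90 and 1.93 FPKM in Short (2.93 ± 1.01), and 3.501, 3.32 and 2.77 FPKM in Long (3.20 ± 0.378). The groups overlapped, and replicate 3 was the lowest of each. Mean FPKM differed from EV by -3.92% in Short and 4.88% in Long. The log2 fold change was -0.05 for Short (95% interval -0.32 to 0.22, limma adjusted p = 0.835) and 0.07 for Long (95% interval -0.19 to 0.34, limma adjusted p = 0.761), the widest intervals of the 5 members tested. OAS1 (ENSG00000089127, from 113343661 to 113371024) had 0.0462, 0.132 and 0.0648 FPKM in EV. In both Short and Long it was listed at 0 in replicates 1 and 3, with 0.0933 FPKM in Short replicate 2 and 0.459 FPKM in Long replicate 2. OAS2 (ENSG00000111335, from 113416200 to 113449528) had 0.0114, 0.0972 and 0.0258 FPKM in EV, 0.0279 FPKM in Short replicate 2, 0.0816 and 0.0323 FPKM in Long replicates 1 and 2, and was listed at 0 in the other libraries. Single libraries therefore set any difference in OAS1 and OAS2, and in a fit without a filter limma gave adjusted p = 0.802 and 0.797 for OAS1 and 0.620 and 0.970 for OAS2 (Short and Long against EV).

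**Figure D2:**
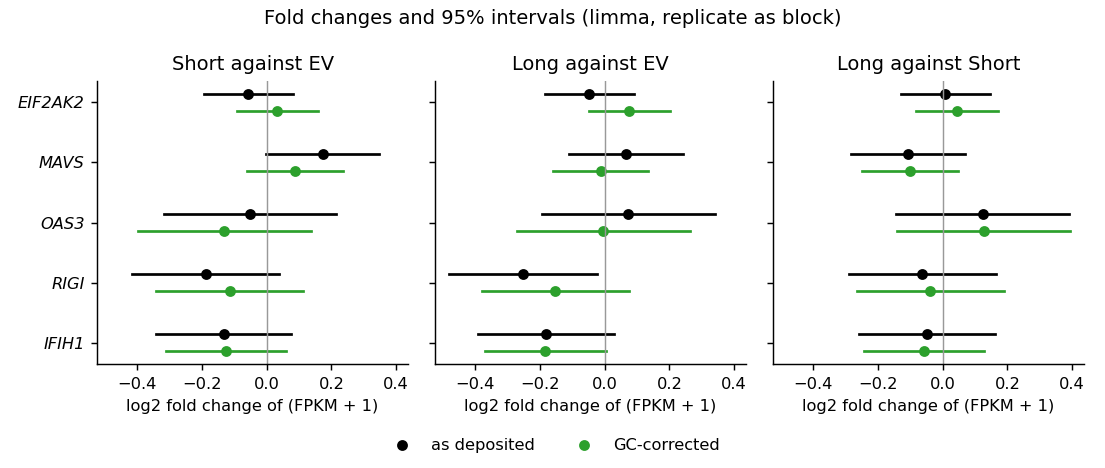
Log2 fold changes of FPKM + 1 (points) with 95% intervals (lines) for the 5 genes tested, in Short against EV, Long against EV and Long against Short, from limma with the replicate block. Black shows the values as deposited and green those after correction for GC content. Of the black intervals, RIGI in Long against EV is the one that leaves out 0 (-0.48 to -0.02), and no green interval does.

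Counting libraries instead of fitting a model, 7 members averaged 0.1 FPKM or more. In Short against EV, 2 of the 7 (RIGI and TLR3) were lower without overlap and 1 (MAVS) was higher, beside 2.87% and 9.38% of the 18535 genes at that minimum. In Long against EV, 2 of the 7 (IFIH1 and TLR3) were lower without overlap and none was higher, beside 3.71% and 9.16% of those genes. In Long against Short the groups of all 7 overlapped. RIGI, IFIH1 and TLR3 all lie in the range of the lowest GC group. The median log2 fold change of that group was -0.08 in Short and -0.10 in Long. EIF2AK2 lies in that range as well, and its groups overlapped. The shares of all genes cover every GC content, and a share at matched GC content was not computed. The comparisons of Short and Long with EV share the EV libraries, so a high EV value lowers both. The genes without overlap did not pass the test across all genes.

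Cell passages were compared as well, with the replicate number taken as the passage in every group. In the F test of limma over the 3 passages, 36.4% of all genes passed, and so did EIF2AK2 (adjusted p = 0.0157) and OAS3 (adjusted p = 0.0169), a share of members close to that background. EIF2AK2 was higher in passage 3 (22.6 to 23.5 FPKM) than in passages 1 and 2 (17.9 to 20.9 FPKM). OAS3 had the opposite pattern, with 1.93 to 2.77 FPKM in passage 3 and 2.90 to 3.96 FPKM in the others. RIGI had a mean of 2.18, 2.26 and 2.86 FPKM in passages 1, 2 and 3 (limma adjusted p = 0.0930), MAVS had 19.6, 22.6 and 21.2 FPKM (limma adjusted p = 0.167), and IFIH1 had 2.26, 2.38 and 2.45 FPKM (limma adjusted p = 0.749). With GC content corrected, limma gave adjusted p = 0.937 for EIF2AK2, 0.0732 for OAS3 and 0.0360 for MAVS, so the passage difference of EIF2AK2 did not remain. The count of members also depended on passage 3: without replicate 3 it was 0, without replicate 2 it was 1, and without the Short libraries it was 0. OAS1 was above 0 in all 3 libraries of passage 2 (0.0933 to 0.459 FPKM) and in the EV library alone of passages 1 and 3.

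**Figure D3:**
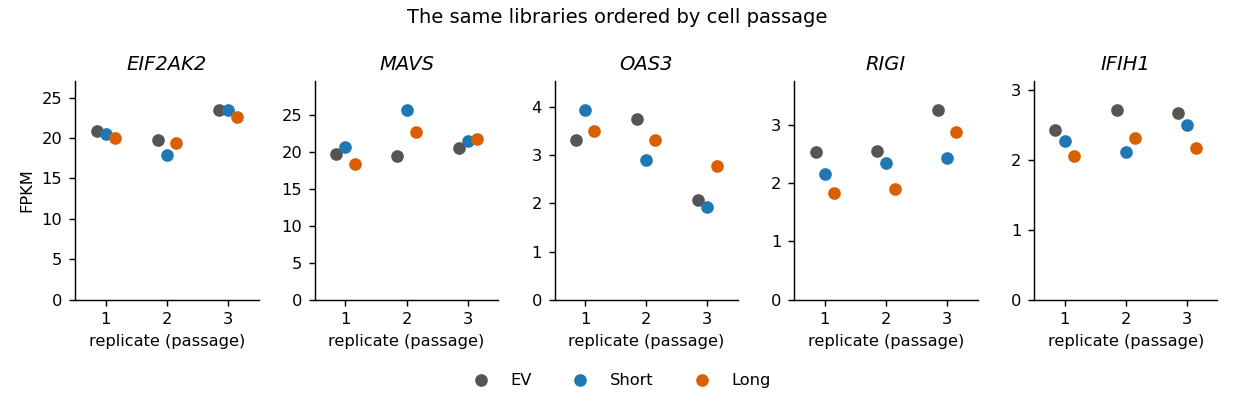
FPKM of the 5 genes tested (1 panel each, linear axes from 0) against the replicate number (taken as the cell passage), with EV in grey, Short in blue and Long in orange. In passage 3 the 3 libraries of EIF2AK2 lie above all others and the 3 libraries of OAS3 lie below all others, while RIGI and IFIH1 have the EV library on top in every passage.

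The pathway around these genes was described with 8 lists, which hold 101 genes, of which 98 were found and 78 averaged 1 FPKM or more. In Short against EV and in Long against Short, none of the 78 passed limma's test (16 and 9 had an unadjusted p under 0.05). In Long against EV, 1 rose and 5 fell, which is 7.69% of the 78 and close to the 8.32% over all genes (20 had an unadjusted p under 0.05). Without replicate 1 or without replicate 2 none of the 6 calls remained, and none remained without the block or after GC correction. With TPM scaling 0 rose and 11 fell, and with median ratio scaling 0 rose and 8 fell.

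Of the 20 genes tested that signal below MAVS and TLR3, 2 fell in Long and none rose, beside 6.33% and 1.99% of all genes. The median log2 fold change of the list was 0.04, beside 0.04 over all genes. TBK1, the kinase that phosphorylates the interferon regulatory factors, had 8.05, 7.77 and 11.4 FPKM in EV, 6.49, 6.58 and 9.33 FPKM in Short and 4.78, 5.02 and 10.2 FPKM in Long. Its log2 fold change was -0.45 (SE 0.11, limma adjusted p = 0.029) and it was lower than EV in 3 of 3 passages, although Long replicate 3 lay inside the EV range. TANK, a scaffold that binds TBK1, had 12.9, 12.0 and 15.2 FPKM in EV, 10.3, 10.4 and 15.6 FPKM in Short and 9.49, 8.60 and 11.9 FPKM in Long, below the EV range in each Long library (log2 fold change -0.39, SE 0.08, limma adjusted p = 0.016). AZI2, another adaptor of TBK1, had the highest mean of the list, 31.7 FPKM. Both genes that fell are of low GC content (36.1% and 36.6%), and their GC-corrected log2 fold changes were -0.19 and -0.16.

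Of the 8 other nucleic acid sensors tested, 2 fell and none rose in Long, beside 6.33% and 1.99% of all genes. The list median was -0.20 (0.04 over all genes) and -0.04 after GC correction, where none of the 8 passed. IFI16, a sensor of DNA, fell most among the pathway genes called: it had 20.8, 17.1 and 19.1 FPKM in EV, 14.6, 13.4 and 16.7 FPKM in Short and 10.8, 10.2 and 15.8 FPKM in Long. All Short and Long libraries were below the EV range, and the log2 fold change was -0.62 in Long (SE 0.10, limma adjusted p = 0.010) and -0.33 in Short (limma adjusted p = 0.123). After GC correction IFI16 had -0.47 in Long (limma adjusted p = 0.054), at a GC content of 38.6%. DHX36, a helicase that unwinds G-quadruplexes, had 24.9, 21.9 and 35.2 FPKM in EV and 16.9, 17.4 and 32.4 FPKM in Long (log2 fold change -0.32, SE 0.08, limma adjusted p = 0.030; GC-corrected -0.17). DDX3X had the highest mean of the list at 220 FPKM, and ZBP1 and AIM2 were listed at 0 in all libraries. The other 6 sensors with a mean under 1 FPKM included those of endosomal single-stranded RNA and DNA.

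Among the 14 partners and targets of PKR, all tested, 1 rose and none fell in Long with FPKM, and none rose and 1 fell with TPM scaling. Of all genes, 1.99% rose and 6.33% fell in Long against EV with FPKM. ATF4, the transcription factor made when eIF2 alpha is phosphorylated, had the highest mean of the list, 313 FPKM. Of the other eIF2 alpha kinases, none of 3 passed, and EIF2AK1 was the highest at 100 FPKM. In the list around the oligoadenylate synthetases, 1 of 5 genes tested fell: ABCE1, which recycles ribosomes, had 48.7, 45.9 and 71.4 FPKM in EV, 36.1, 42.9 and 72.3 FPKM in Short and 32.6, 28.5 and 66.0 FPKM in Long (log2 fold change -0.45, SE 0.11, limma adjusted p = 0.029; GC-corrected -0.17). Its range in Long overlapped that in EV because of the high value of passage 3 in both.

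The remaining lists had no gene that passed in any of the 3 comparisons with FPKM. They were the 14 ubiquitin ligases and cofactors of the RIG-I-like receptors that were tested (PCBP2 the highest, 370 FPKM), the 9 interferon, receptor and Janus kinase-STAT genes tested (TYK2 the highest, 51.7 FPKM) and the 5 tested of the genes induced through these sensors (IFIT5 the highest, 9.19 FPKM). The median log2 fold change in Long against EV was 0.06, 0.05 and 0.09 for these lists. In the last of them, 1 gene fell in Long against EV with TPM scaling and 1 with median ratio scaling. IFNA1 was listed at 0 in all libraries. IFNB1, the first interferon made on RIG-I and MDA5 signalling, was at 0 to 0.057 FPKM over the libraries, and ISG15, an abundant interferon-induced gene, was at 2.86 to 6.93 FPKM. Both were named after their values were seen. Of the 78 pathway genes tested, 36 differed between passages, which is 46.2%, beside 36.4% of all genes.

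**Figure D4:**
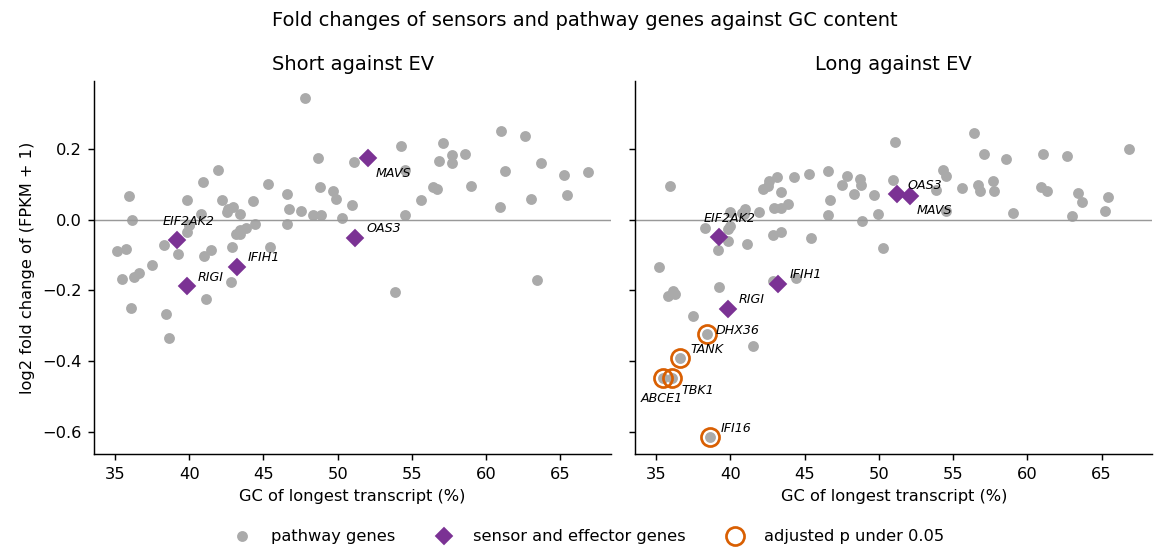
Log2 fold change of FPKM + 1 against the GC content of the longest transcript (%), for Short against EV (left) and Long against EV (right). Grey points are 76 of the pathway genes tested, purple diamonds the 5 sensor and effector genes tested, and orange rings mark genes with an adjusted p under 0.05. The 5 genes ringed have a GC content of 35.5% to 38.6%, and RIGI (39.8%) lies next to them and is not ringed.

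The member with the highest mean over the 9 libraries was MAVS (21.1 FPKM), and its pattern was compared with those of the other 13800 genes tested. The most similar were NDOR1 (Pearson's r = 0.970, Spearman's rho = 0.983), IER5L (r = 0.968, rho = 0.95) and ARMC5 (r = 0.952, rho = 0.917), all over log2(FPKM + 1) in the 9 libraries. These are the highest of 13800 correlations, over libraries that share passages and plasmids, and are given as a description.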

How the data were processed

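Strand-specific, paired-end mRNA-seq libraries (TruSeq Stranded mRNA) of EV, Short and Long HEK293 cells were mapped by the authors with TopHat (version 1.4.1), using Ensembl transcripts before the hg19 genome. The submitters' processing notes also name Cufflinks, whose version is not given in the sources used here. The deposited values are FPKM per Ensembl gene and library, with replicates not pooled. FPKM is scaled to each library's total, so a few abundant transcripts lower the values of all other genes. The Ensembl release and the use of strand in counting are not given in the sources used here, and without counts no counting error could be computed.

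Groups and replicate numbers came from the sample labels. FPKM was analysed as log2(FPKM + 1) with limma (version 3.58.1, R version 4.3.3; lmFit, eBayes with a mean-variance trend) on the 13801 genes that averaged 1 FPKM or more, with group and replicate number in 1 fit of all 9 libraries and Benjamini-Hochberg adjustment over all genes tested. The methods state that transfections were repeated in 3 cell passages, but not that libraries of the same number share a passage. The pairing by replicate number is therefore an inference. Same-numbered libraries deviated together (mean correlation across genes 0.55 over 9 pairs, lowest 0.327) while different-numbered ones had a mean correlation of -0.26 over 18 pairs (highest 0.366). Deviations were taken from the mean of each group, so positive correlations of same-numbered libraries push the others towards negative values. The negative mean is therefore not separate evidence of the pairing. The fit was tested on simulated data for Long against EV: of 13801 genes, 200 were changed by 1.5 (log2), and the fit recovered 200 of these and called 9 others. The changed genes were drawn from the more highly expressed ones. The largest fold change of a member in this fit was -0.25 (RIGI in Long against EV), and recovery of changes that small was not tested. Members were also compared with exact two-sided permutation tests, and within passages with exact two-sided sign-flip tests of the log2 ratios.

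Names, positions, length and GC content came from the GENCODE annotation mapped to GRCh37 (47578 identifiers, 87.2%), and promoter sequences from RefSeq (GRCh38.p14). The GC correction was a loess curve (span 0.3) per library, with 403 genes of unknown GC left uncorrected. The members and pathway lists were chosen with earlier results of these data known. From the lists, the naming rule took the genes called (up to 5 per list), the highest mean and the genes at 0, and for the highest member the 3 genes most correlated with it. IKBKE, IKBKG and CCL5 of the lists and NEFL and LHX1 of the HEK293 markers were not found by symbol. Alternatives were other pseudocounts, TPM and median ratio scaling, other filters, no block, fewer groups, no trend, each replicate left out, and GC and length corrections. Pseudocounts of 0.1 and 0.01 for the members under 1 FPKM were chosen after seeing the data. The values of 2 genes of the lists, 1 of them called, are not reported here, although the counts include them. RNA editing was not analysed here.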

Additional observations from a re-analysis of the deposited data

How the results depend on the processing

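None of the 246 fold changes of the members over these alternatives passed limma's adjusted threshold. The lowest adjusted p was 0.0952 (RIGI, Long against EV, TPM), and over its alternatives RIGI in Long against EV ranged from -0.35 to -0.15. Without the replicate block that pairs the passages, 2 genes passed in Short against EV (5 with it), 2 in Long against EV (1148 with it) and 0 in Long against Short (1 with it), and the block changed no call of a member between groups. Without a trend the counts were 3, 646 and 0, without a filter 1, 1 and 0, and after GC correction 3 and 1 (Short and Long against EV). With only the 2 groups compared they were 752 in Long against EV and 3 in Long against Short. Leaving out a replicate gave 2 to 59, 2 to 1031 and 0 to 9 genes, with 2 in Long against EV without replicate 1 and 100 without replicate 2. Fits with a replicate or a group left out hold fewer libraries, and without replicate 3 the count in Long against EV was 1031. The causes were not tested. Between passages 5028 genes and 2 members passed. Without a filter the counts were 2861 and 1, with a replicate left out 30 to 4749 and 0 to 2, and without the Short libraries 2221 and 0. They were 2266 and 1 without the Long libraries, and the members were 1 after GC correction and 1 without the EV libraries. RIGI differed between passages with TPM (adjusted p = 0.0463) and median ratio scaling (adjusted p = 0.0478, both limma).

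Fold changes that changed sign, none of them called, were EIF2AK2 after GC correction (0.032 in Short, 0.076 in Long), EIF2AK2 and RIGI in Long against Short with a replicate left out (-0.044 to 0.040 and -0.18 to 0.010), OAS3 in Short (-0.18 to 0.066) and Long (-0.040 to 0.18) with a replicate left out, and OAS3 in Long after GC correction (-0.0043). MAVS in Long had -0.0058 with TPM, -0.012 after GC correction and -0.0060 to 0.15 with a replicate left out, and OAS1 in Long had -1.22 with a pseudocount of 0.01. Low FPKM and 3 passages limit the precision for TLR3, DHX58, OAS1 and OAS2.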
